A study of Mus musculus with 4 samples.

Results

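The 10 genes Glul, Oat, Slc1a2, Lhpp, Cyp2e1, Cyp1a2, Axin2, Lgr5, Rnf43 and Tbx3 are genes that hepatocytes around the central vein of the liver lobule use and that depend there on Wnt signals. They were taken by symbol from the 46603 gene identifiers of the count table, and all 10 had enough counts to be tested among 13001 genes. Total liver RNA of 4 male mice was sequenced, 2 per group. Every mouse was C57BL/6 J with both copies of HuR floxed, and every mouse received a Western diet with 42% of kcal from fat and 0.1% cholesterol, and drinking water with 23.1 g/L fructose and 18.9 g/L glucose, for 4 weeks. The mice labelled HuR hKO (mice 3 and 4) had received by tail vein an AAV8 vector in which the hepatocyte promoter TBG drives Cre. The mice labelled control (mice 1 and 2) received the same amount of an AAV8 vector with TBG and GFP, from a different supplier. HuR, encoded by Elavl1, is a protein that binds AU-rich stretches of RNA and alters the stability and translation of its targets. The deletion was thus designed for hepatocytes alone, while the RNA came from the whole liver with its other cell types, and the ages of the mice are not given in the sources used here. In such bulk RNA, fewer cells of a type and less RNA per cell cannot be told apart.

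Hepatocytes along the lobule divide their work. Endothelial cells of the central vein release Wnt ligands and the R-spondin Rspo3, which act through Frizzled, Lrp5/6 and Lgr receptors to stabilise β-catenin in the nearest hepatocytes, and β-catenin with TCF/LEF factors then maintains the pericentral programme of glutamine synthesis and drug metabolism. Several target genes, among them Axin2, Rnf43, Znrf3, Nkd1 and Notum, encode inhibitors of the same pathway and so serve as its readout. Periportal hepatocytes, at the other end, carry gluconeogenesis, urea synthesis and amino acid breakdown.

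The libraries held 13032095 to 19715577 counts, with 6.56 to 7.64% of them from mitochondrial genes. Elavl1, the targeted gene, had 28.4 and 25.9 CPM (counts scaled to a common library size, with TMM factors) in the control livers and 37.7 and 34.4 CPM in those labelled HuR hKO. Both livers labelled HuR hKO thus lay above, not below, both controls (27.1 ± 1.74 against 36.1 ± 2.36 CPM, SD, n = 2 each). The log2 fold change was 0.41 ± 0.14 (SE), with an adjusted p of 0.545 by the edgeR quasi-likelihood test. The count sums all exons of the gene, so it does not show whether the floxed part was lost, and every direction given here rests on the labels alone. Fold changes are the libraries labelled HuR hKO relative to control, and adjusted p-values cover all 13001 genes.

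Upstream windows of members from the RefSeq annotation (GRCm38.p6) are shown first, because TCF/LEF binding at target genes is how the pathway acts. The 250 bases before an annotated start were at hand for 7 of the 10 members (8 windows). Those printed are Glul, whose groups did not overlap, both cytochrome genes, Slc1a2 and the feedback gene Axin2. Capitals mark matches on either strand to TCF/LEF words or to the TATA box, TATAAA. The first TCF/LEF word searched was CTTTGAA, the next word was CTTTGAT, the third word was CTTTGTA and the last word was CTTTGTT.
Glul, chr1:153899679-153899928, plus strand: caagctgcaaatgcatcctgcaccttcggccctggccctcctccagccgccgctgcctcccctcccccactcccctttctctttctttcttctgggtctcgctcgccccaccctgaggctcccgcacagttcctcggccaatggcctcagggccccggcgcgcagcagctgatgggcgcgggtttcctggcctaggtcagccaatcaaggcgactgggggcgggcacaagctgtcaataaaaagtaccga
Cyp2e1, chr7:140763569-140763818, plus strand: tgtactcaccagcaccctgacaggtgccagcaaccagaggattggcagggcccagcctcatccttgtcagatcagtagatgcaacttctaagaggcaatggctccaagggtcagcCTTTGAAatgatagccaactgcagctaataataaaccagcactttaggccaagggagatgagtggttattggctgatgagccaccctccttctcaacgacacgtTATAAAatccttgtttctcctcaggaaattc
Cyp1a2, chr9:57683656-57683905, minus strand: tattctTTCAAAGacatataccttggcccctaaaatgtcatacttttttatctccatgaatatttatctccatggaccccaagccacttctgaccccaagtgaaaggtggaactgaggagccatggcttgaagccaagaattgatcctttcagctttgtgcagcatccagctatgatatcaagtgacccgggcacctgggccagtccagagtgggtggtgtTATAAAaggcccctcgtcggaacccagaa
Slc1a2, chr2:102706188-102706437, plus strand: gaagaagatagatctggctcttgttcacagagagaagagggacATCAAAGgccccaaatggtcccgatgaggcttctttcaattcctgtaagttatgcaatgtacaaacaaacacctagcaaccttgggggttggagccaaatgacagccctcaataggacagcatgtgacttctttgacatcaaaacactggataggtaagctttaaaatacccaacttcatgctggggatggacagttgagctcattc
Axin2, chr11:108920099-108920348, plus strand: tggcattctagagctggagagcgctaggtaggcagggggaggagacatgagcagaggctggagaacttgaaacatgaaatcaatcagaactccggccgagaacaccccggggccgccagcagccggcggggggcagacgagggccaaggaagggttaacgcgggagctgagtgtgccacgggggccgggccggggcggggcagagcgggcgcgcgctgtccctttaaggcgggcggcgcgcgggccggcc
The Cyp2e1 window holds CTTTGAA 135 to 129 bases before the start and TATAAA 31 to 26 bases before it. In the Cyp1a2 window CTTTGAA lies on the opposite strand 244 to 238 bases before the start, with TATAAA at 29 to 24 bases. Slc1a2 has CTTTGAT on the opposite strand at 207 to 201 bases, in a window that belongs to a start inside the gene. Glul, Oat, Axin2 and both windows of Rnf43 have no such TCF/LEF word in these bases, and each word set occurs in many genes, TCF/LEF in 14.8% and TATAAA in 12.4% of 32841 windows of the same length. The CCAAT box, searched on both strands, has 2 matches each in Glul, Oat and Cyp2e1 and is in 33.9% of all windows. The words searched do not overlap each other in these windows. The share of G and C is 64.8% in the Glul window and 69.2% in that of Axin2, against 48.8% for Cyp2e1, 47.2% for Cyp1a2 and a median of 52.4% over all windows.

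None of the 10 genes passed an adjusted p of 0.05 in the edgeR quasi-likelihood test (0 of 10, against 0.0231% of all genes tested, which is 3 genes), and none did with DESeq2 or limma-voom. At an unadjusted p under 0.05, Glul alone was higher (1 of 10, against 4.04% of all genes) and no member was lower (0 of 10, against 3.39%). A rule of 1.8-fold with an unadjusted p under 0.05 took in 0 of 10 members and 2.12% of all genes. The livers labelled HuR hKO lay above both control livers for 1 member, Glul, and below both for 0 members, whereas 19.3% of all genes lay above and 18.8% below. Fitted fold changes were above 0 for 6 members and below 0 for 4, and 50.3% of all genes were above 0. The median log2 fold change was 0.06 over the members and 0.0020 over all genes, and the median of the members was -0.09 without control mouse 1, -0.10 without mouse 4 and 0.36 without control mouse 2.

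**Figure D1:**
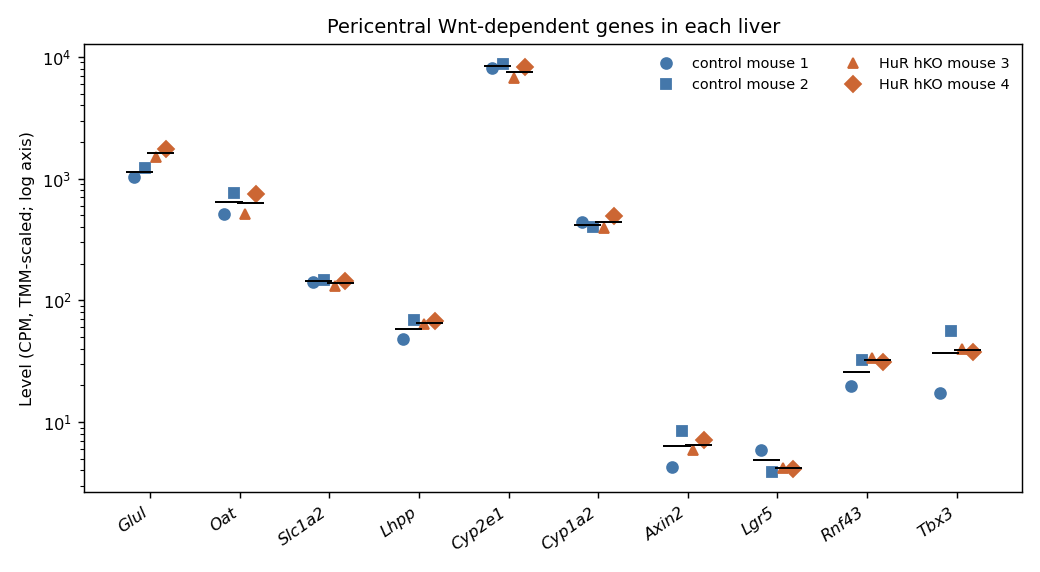
Levels of the 10 genes in each liver, in TMM-scaled CPM on a log axis, with 1 symbol per mouse and a bar at each group's mean (n = 2). Glul has both livers labelled HuR hKO above both control livers, and for Lhpp, Axin2, Rnf43 and Tbx3 control mouse 1 is the lowest of the 4 livers.

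Glul encodes glutamine synthetase, which takes up ammonia that escaped the urea cycle, and marks the hepatocytes next to the central vein (chr1:153899944-153909723 on GRCm38, plus strand). It was measured at 1024 and 1223 CPM in the control livers and at 1516 and 1734 CPM in the livers labelled HuR hKO. Both livers labelled HuR hKO were thus above both controls, and Glul was the only member whose groups did not overlap. The means were 1123 ± 140 and 1625 ± 154 CPM (SD, n = 2 each), a 1.45-fold difference with a log2 fold change of 0.53 ± 0.17 (SE). Its unadjusted p was 0.014 and its adjusted p 0.526 in the edgeR quasi-likelihood test, and over the alternative settings the adjusted p ran from 0.138 with DESeq2 to 0.999. Its log2 fold change stayed between 0.40 and 0.67 when any 1 mouse was dropped. Glul overlaps Teddm2 on the opposite strand, and whether the counting used strand is not given in the sources used here.

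Oat, ornithine aminotransferase, supplies glutamate to the same cells by breaking down ornithine (chr7:132557478-132576398, minus strand). Its levels were 516 and 768 CPM in control and 509 and 744 CPM in the libraries labelled HuR hKO. Mice 1 and 3 were low and mice 2 and 4 high, so that each group held nearly the same pair of values. The log2 fold change was -0.04 ± 0.24 (SE, adjusted p = 0.984 by edgeR), and it ran from -0.34 to 0.28 with 1 mouse left out.

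Slc1a2, the glutamate transporter GLT-1 (chr2:102658659-102790784, plus strand), varied least among the members. It stood at 143 and 147 CPM in control and 131 and 145 CPM in the livers labelled HuR hKO. All 4 livers lay within 0.16 of each other on the log2 scale, and the groups overlapped. This gave a log2 fold change of -0.07 ± 0.13 (SE, adjusted p = 0.933 by edgeR). Lhpp, a histidine phosphatase (chr7:132610638-132706420, plus strand), was at 48.3 and 68.5 CPM in control and at 63.4 and 67.6 CPM in the livers labelled HuR hKO. Control mouse 1 was low and the other 3 livers were close together. Its log2 fold change was 0.17 ± 0.18 (SE, adjusted p = 0.869 by edgeR), and without control mouse 1 it was -0.08. Oat and Lhpp lie on chromosome 7 with 34239 bases between them, and Fgfr2, as annotated, overlaps both.

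Cyp2e1 encodes the cytochrome P450 that oxidises ethanol and paracetamol, and Cyp1a2 the one that oxidises caffeine and is induced through the aryl hydrocarbon receptor. Cyp2e1 (chr7:140763739-140774987, plus strand) was measured at 8109 and 8679 CPM in control and at 6652 and 8310 CPM in the livers labelled HuR hKO. Mouse 3 was the lowest, and mouse 4 lay between the controls. The means were 8394 ± 404 and 7481 ± 1172 CPM (SD, n = 2 each), and the log2 fold change was -0.17 ± 0.20 (SE, adjusted p = 0.888 by edgeR). Cyp1a2 (chr9:57676937-57683703, minus strand) had 437 and 398 CPM in control and 394 and 492 CPM in the livers labelled HuR hKO. Here the livers labelled HuR hKO held both the lowest and the highest value. The log2 fold change was 0.09 ± 0.16 (SE, adjusted p = 0.930 by edgeR), while mice 3 and 4 differed by 0.32 on the log2 scale.

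Axin2, a scaffold of the complex that degrades β-catenin (chr11:108920349-108950783, plus strand), had 57 and 113 counts in control and 84 and 135 in the libraries labelled HuR hKO, or 4.29, 8.44, 5.86 and 7.17 CPM in the order of the mice. The 2 controls held both the lowest and the highest level. The log2 fold change was 0.04 ± 0.32 (SE, adjusted p = 0.988 by edgeR) and ran from -0.38 without control mouse 1 to 0.61 without control mouse 2. Rnf43, a ubiquitin ligase that removes Frizzled receptors from the cell surface (chr11:87662722-87735539, plus strand), had 19.9 and 32.0 CPM in control and 33.7 and 31.0 CPM in the livers labelled HuR hKO. Control mouse 1 was low, and the other 3 livers lay close together. Its log2 fold change of 0.32 ± 0.21 (SE, adjusted p = 0.778 by edgeR) was 0.00 without control mouse 1 and 0.70 without control mouse 2.

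Tbx3, a T-box transcription factor of pericentral hepatocytes (chr5:119670669-119684724, plus strand), varied most. Its counts were 228 and 751 for the controls and 573 and 713 for the other 2 mice, or 17.2, 56.1, 40.0 and 37.9 CPM. Control mouse 2 exceeded control mouse 1 by 1.71 on the log2 scale, and both livers labelled HuR hKO lay between them. The log2 fold change was 0.09 ± 0.42 (SE, adjusted p = 0.977 by edgeR). It was -0.54 without control mouse 1 (adjusted p = 0.404) and 1.18 without control mouse 2 (adjusted p = 0.037 by the same edgeR test), so that 1 control library decided both its sign and its call.

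Lgr5, a receptor for R-spondins (chr10:115450311-115587780, minus strand), ran the other way between the controls. It had 78 and 52 counts in control and 60 and 78 in the libraries labelled HuR hKO, or 5.87, 3.88, 4.19 and 4.14 CPM. Control mouse 1 was the highest and control mouse 2 the lowest. Its fitted log2 fold change was -0.23 ± 0.28 (SE, adjusted p = 0.888 by edgeR), and without control mouse 1 it was 0.09.

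**Figure D2:**
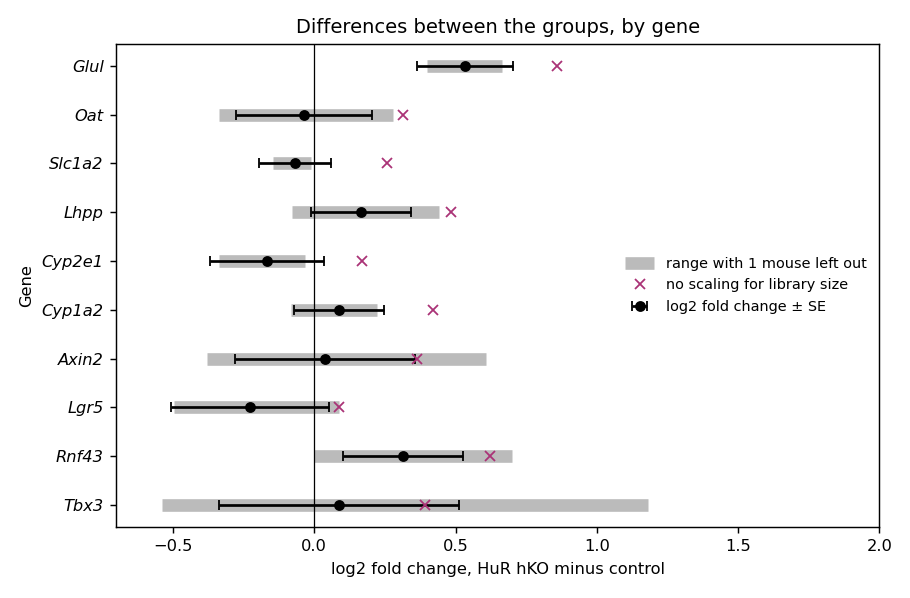
Log2 fold change of each member, HuR hKO minus control, with its standard error, the range when 1 of the 4 mice is left out (grey bars), and the value without scaling for library size (crosses). The grey bars of Tbx3 and Axin2 are the widest, from -0.54 to 1.18 and from -0.38 to 0.61, and without scaling all 10 values are above 0.

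Distances between mice of one group were set beside the distance between groups. For 7 of the 10 members the control mice differed by more, on the log2 scale, than the fitted group difference, and for 5 the mice labelled HuR hKO did. The share of all genes for which this holds is not given here. Control mouse 2 was above control mouse 1 for 8 members, by 0.26 for Glul, 0.50 for Lhpp, 0.57 for Oat, 0.69 for Rnf43 and 0.98 for Axin2 on the log2 scale. Mouse 4 was above mouse 3 for 7 members, by 0.55 for Oat. Shares over all genes are missing for these counts too, so none of them is read as a trait of the members. Glul, Slc1a2 and Cyp2e1 kept the sign of their fitted difference whichever mouse was dropped, Rnf43 came to 0.00 without control mouse 1, and the other 6 changed sign.

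Bile duct markers also differed between the control livers, in the opposite direction, with mouse 1 above mouse 2. Krt19, a keratin of bile duct cells looked up after its values were seen, had 162 and 5 counts in control mice 1 and 2 and 7 and 34 in mice 3 and 4. Over the 6 bile duct markers the summed level was 52.8 and 27.5 CPM in control mice 1 and 2 and 39.6 and 49.8 CPM in mice 3 and 4. Between mice 3 and 4 the markers thus ran in the same direction as 7 members, with mouse 4 above mouse 3. Of these markers, 4 passed the filter on low counts, and Cftr was at 0 counts in 3 libraries. Of those 4, 1 (Spp1) had both livers labelled HuR hKO above control (19.3% of all genes did). The part of bile duct cells in the difference between the control livers was not tested.

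Levels between genes were compared per length, as CPM per kilobase of exon. In the control livers Cyp2e1 had 3890 ± 187 CPM per kilobase (SD, n = 2), 11.5 times the level of Glul at 338 ± 42.2. Next came Oat at 272 ± 75.5 and Cyp1a2 at 207 ± 13.7 CPM per kilobase. The SDs over mice of Glul and Oat overlapped, as did those of Oat and Cyp1a2. Within each of the 4 livers, however, Glul lay above Oat and Oat above Cyp1a2. In control mouse 1 the latter difference was narrow (218.6 against 217.0 CPM per kilobase). Lhpp had 24.2 ± 5.92 and Slc1a2 11.01 ± 0.22 CPM per kilobase. The regulators followed, with Tbx3 at 5.53 ± 4.15, Rnf43 at 3.96 ± 1.31, Axin2 at 1.16 ± 0.53 and Lgr5 at 0.475 ± 0.137 CPM per kilobase, and the spread of Tbx3 covered the level of Rnf43. In the livers labelled HuR hKO the order of all 10 was the same on this scale, with Cyp2e1 at 3467 ± 543, Glul at 489 ± 46.5 and Oat at 265 ± 70.5 CPM per kilobase.

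Because HuR binds AU-rich RNA, the pentamer ATTTA was counted in the longest 3' UTR that GENCODE M21 gives each member. Slc1a2 has 16 in 9253 bases, Lgr5 8 in 1706, Oat 3 in 695, Rnf43 3 in 1343 and Axin2 3 in 1391. Glul, Tbx3 and Cyp1a2 have 2 each, and Cyp2e1 and Lhpp have 0. Per kilobase, 8 of the 10 lie above the median of 1.220 over 11908 tested genes, of which 70.5% have at least 1. These 8 are the members with at least 1, and among them Tbx3 at 1.223 and Glul at 1.295 lie close to the median. These are counts of letters, and binding was not measured.

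Upstream of the members, the list of Wnt ligands and secreted factors had 11 of 21 genes with enough counts. None passed an adjusted p of 0.05 in edgeR, and none reached an unadjusted p of 0.05. Of the 11, 10 had a fold change above 0 (50.3% of all genes did), with a median log2 fold change of 0.38 over the list. Both livers labelled HuR hKO lay above both controls for 6 (19.3% of all genes did). These 6 were Wnt4, Rspo3, Porcn, Wls, Dkk3 and Frzb, so that Wnt4 was the only Wnt ligand among them. The list mixes ligands with antagonists such as Frzb and with the enzyme Porcn, so its median does not measure the supply of ligands. Rspo3, the R-spondin of the central vein, was at 5.19 and 5.90 CPM in control and 7.53 and 7.06 CPM in the livers labelled HuR hKO. The groups did not overlap, and the log2 fold change was 0.39 ± 0.21 (SE, adjusted p = 0.713 by edgeR). Porcn, the enzyme that attaches the lipid to Wnt ligands, had 28, 20, 51 and 52 counts in the order of the mice and a log2 fold change of 0.80 ± 0.35 (SE, adjusted p = 0.670 by edgeR). Frzb, a secreted Wnt antagonist, had 10, 12, 24 and 22 counts and a log2 fold change of 0.77 ± 0.47 (SE, adjusted p = 0.755 by edgeR). Wnt2 (3.46, 2.84, 4.26 and 3.19 CPM) and Wnt9b (1.58, 0.97, 1.33 and 2.65 CPM), the ligands made by liver endothelium, overlapped between the groups.

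Summed marker levels of other cell types stood beside these genes as follows. Over 7 genes of central vein endothelium, which include Rspo3, Wnt2 and Wnt9b, the summed level was 28.6 to 33.1 CPM in control and 36.6 to 37.3 CPM in the livers labelled HuR hKO, and all 7 had counts in every library. Of these 7, 2 (Rspo3 and Vwf) had both livers labelled HuR hKO above control. The sums were 106 to 113 against 123 to 125 CPM for 6 genes of Kupffer cells and macrophages, 158 to 159 against 168 to 205 CPM for 6 of stellate cells, and 196 to 219 against 219 to 249 CPM for 7 of sinusoidal endothelium, with 3, 2 and 3 of them above control in both livers (19.3% of all genes were) and none at 0 in any library. The 5 neutrophil markers summed to only 2.18 to 2.31 CPM in control and 1.54 to 1.95 CPM in the livers labelled HuR hKO. Of these 5, 1 passed the filter on low counts, with both livers labelled HuR hKO below control (18.8% of all genes were) and an adjusted p of 0.749 by edgeR. In control mouse 1 and in mice 3 and 4, 1 of the 5 was at 0 counts. The sums of the 5 T or NK cell markers overlapped, at 2.26 to 2.99 against 2.37 to 2.87 CPM. Of these 5, 2 passed the filter, and neither overlapped between the groups. For 1 both livers labelled HuR hKO lay above control, and for 1 both lay below (19.3% and 18.8% of all genes). Hepatocyte markers summed to 70070 to 72093 CPM in control and 66469 to 74633 CPM in the livers labelled HuR hKO. The part of endothelial content in the levels of the Wnt ligands and secreted factors was not tested.

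**Figure D3:**
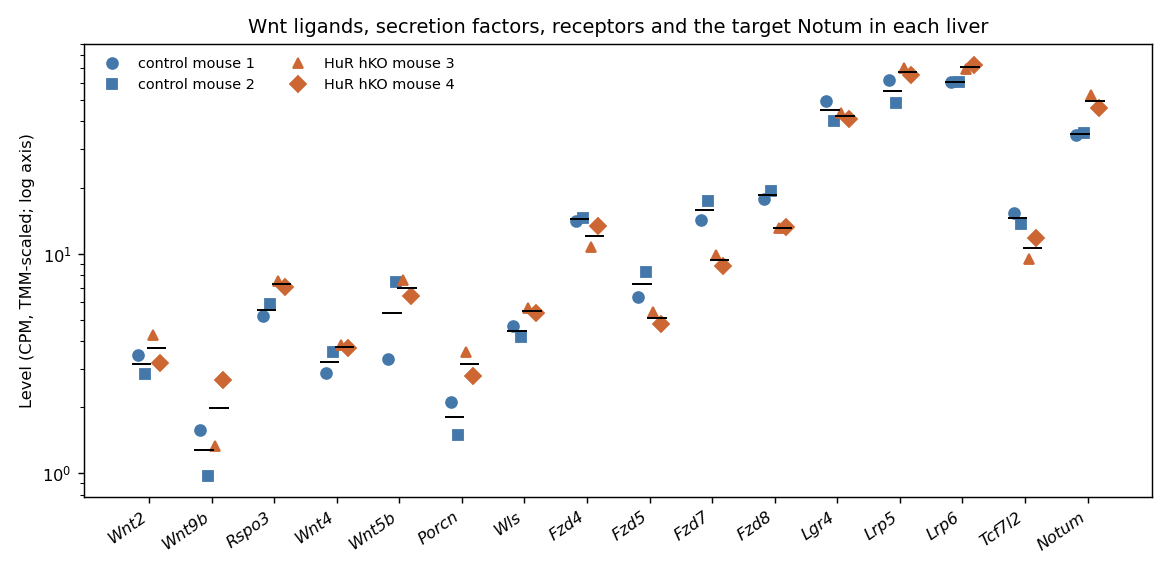
Wnt ligands, secretion factors, receptors, Tcf7l2 and Notum in each liver, in TMM-scaled CPM on a log axis, with 1 symbol per mouse and bars at group means (n = 2). Rspo3, Porcn and Notum have both livers labelled HuR hKO above control, and Fzd7, Fzd8 and Tcf7l2 have both below.

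Among receptors and transducers, 27 of 28 genes were tested, 10 above and 17 below 0, and their median log2 fold change was -0.07. None passed an adjusted p of 0.05 in edgeR, and 3 were lower and 0 higher at an unadjusted p under 0.05 (3.39% and 4.04% of all genes). Both livers labelled HuR hKO lay below both controls for 11 of the 27 and above both for 6 (18.8% and 19.3% of all genes). The Frizzled receptor Fzd7 had 14.3 and 17.4 CPM in control and 9.91 and 8.81 CPM in the livers labelled HuR hKO, below both controls. Its log2 fold change was -0.76 ± 0.18 (SE, adjusted p = 0.312 by edgeR). Fzd8 had 17.8 and 19.3 CPM in control and 13.1 and 13.2 CPM in the livers labelled HuR hKO, and the log2 fold change came to -0.49 ± 0.15 (SE, adjusted p = 0.488 by edgeR). Tcf7l2, the TCF factor of hepatocytes, had 15.3 and 13.7 CPM against 9.49 and 11.7 CPM, a log2 fold change of -0.44 ± 0.18 (SE, adjusted p = 0.632 by edgeR). The co-receptors Lrp5 and Lrp6 lay above control in both livers labelled HuR hKO, with log2 fold changes of 0.29 ± 0.15 and 0.23 ± 0.12 (SE, adjusted p = 0.709 for each by edgeR). Ctnnb1, which encodes β-catenin, had a log2 fold change of -0.03 ± 0.16 and the R-spondin receptor Lgr4 one of -0.09 ± 0.15, and both overlapped between groups.

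Of the other Wnt target genes, 8 of 10 were tested, 5 above and 3 below 0, their median log2 fold change being 0.08, and none passed an adjusted p of 0.05 in edgeR. Notum, which removes the lipid from Wnt ligands, was the 1 gene at an unadjusted p under 0.05 and the 1 whose groups did not overlap. It stood at 34.7 and 35.5 CPM in control and 52.9 and 46.1 CPM in the livers labelled HuR hKO. The fitted log2 fold change was 0.50 ± 0.14 (SE, adjusted p = 0.427 by edgeR), close in size to that of Glul. Nkd1 (0.09 ± 0.22) and Znrf3 (-0.09 ± 0.22), both inhibitors of the pathway, overlapped between groups. Sp5, a transcription factor gene, had 2.56 and 5.67 CPM in control and 4.88 and 5.31 CPM in the livers labelled HuR hKO, with control mouse 1 the lowest. Ccnd1, encoding cyclin D1, had 15.2 and 25.2 CPM against 30.3 and 19.96 CPM, and the groups overlapped. Myc had 5.42 and 1.20 CPM in control and 1.81 and 2.34 CPM in the livers labelled HuR hKO, with the controls as its highest and lowest livers.

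All 25 further pericentral genes were tested, 14 above and 11 below 0, their median log2 fold change being 0.02 beside 0.06 for the members. None passed an adjusted p of 0.05 in edgeR, and at an unadjusted p under 0.05, 8 were higher and 1 lower (4.04% and 3.39% of all genes). Both livers labelled HuR hKO lay above both controls for 7 of the 25 and below both for 3 (19.3% and 18.8% of all genes). Nt5e, which makes adenosine from AMP, had 41 and 34 counts in control and 70 and 111 in the libraries labelled HuR hKO, and the log2 fold change came to 0.94 ± 0.27 (SE, adjusted p = 0.448 by edgeR). Lect2, a secreted hepatocyte protein and Wnt target, had 96.9 and 115 CPM in control and 123 and 204 CPM in the livers labelled HuR hKO, and the log2 fold change came to 0.63 ± 0.23 (SE, adjusted p = 0.574 by edgeR). Rhbg, the ammonium transporter found with Glul in the same cells, had 68 and 179 counts in control and 189 and 625 in the libraries labelled HuR hKO. Mouse 4 was far above the rest and the groups overlapped in CPM, with a log2 fold change of 1.34 ± 0.49 (SE, adjusted p = 0.577 by edgeR). Cyp7a1, the rate-limiting enzyme of bile acid synthesis, had 101 and 132 CPM in control and 65.5 and 89.0 CPM in the livers labelled HuR hKO, and the log2 fold change came to -0.59 ± 0.19 (SE, adjusted p = 0.530 by edgeR). Cyp27a1, of the alternative bile acid pathway, was at 451 CPM in both controls and at 371 and 406 CPM in the livers labelled HuR hKO (log2 fold change -0.22 ± 0.14, SE, adjusted p = 0.766 by edgeR). Gulo, which makes vitamin C, overlapped between groups (log2 fold change 0.17 ± 0.15, SE).

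For the periportal genes, all 19 were tested, 13 above and 6 below 0, their median log2 fold change being 0.06, the same to 2 decimals as that of the members. None passed an adjusted p of 0.05 in edgeR, and 4 were higher and 0 lower at an unadjusted p under 0.05 (4.04% and 3.39% of all genes). Both livers labelled HuR hKO lay above both controls for 6 of the 19 and below both for 1 (19.3% and 18.8% of all genes). Aldh1b1, a mitochondrial aldehyde dehydrogenase, had 36.0 and 43.8 CPM in control and 67.3 and 85.2 CPM in the livers labelled HuR hKO. The fitted log2 fold change was 0.94 ± 0.17 (SE), with an adjusted p of 0.139 by edgeR and 0.0017 by DESeq2. Sds, serine dehydratase, had a log2 fold change of 0.44 ± 0.15 (SE, adjusted p = 0.574 by edgeR), with both livers labelled HuR hKO above control. Cyp2f2, a cytochrome P450 of periportal cells, was at 1105 and 940 CPM in control and 714 and 877 CPM in the livers labelled HuR hKO (log2 fold change -0.36 ± 0.17, SE, adjusted p = 0.680 by edgeR). Hal, which opens histidine breakdown, Ass1 of the urea cycle and Pck1 of gluconeogenesis had log2 fold changes of 0.04 ± 0.17, 0.18 ± 0.16 and 0.06 ± 0.23 (SE).

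**Figure D4:**
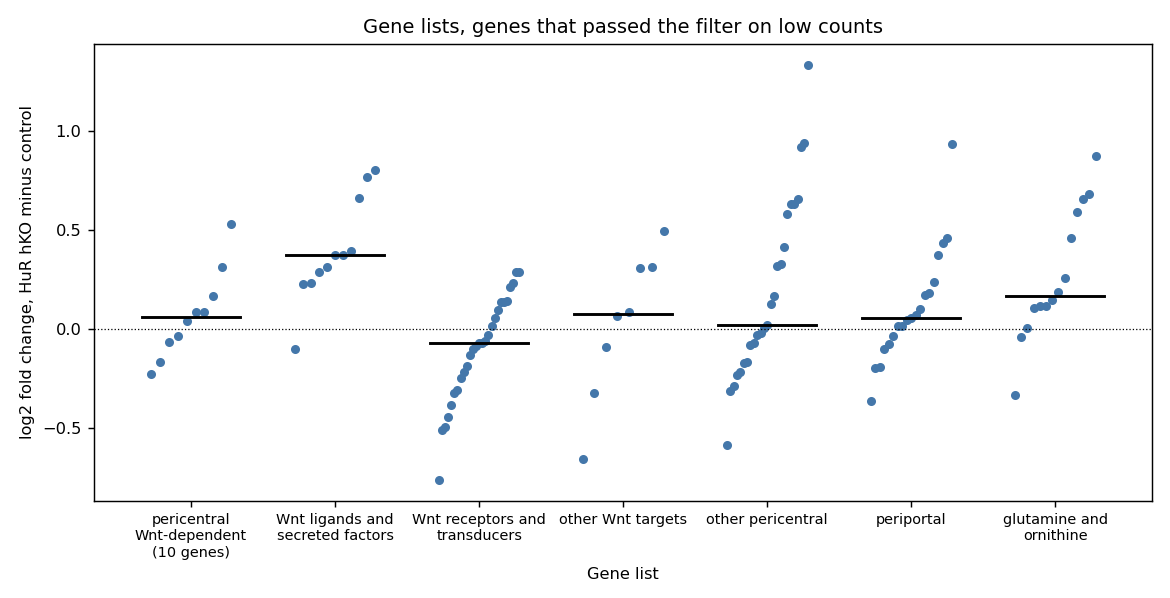
Log2 fold change, HuR hKO minus control, of each tested gene in 7 lists, with a bar at each list's median. The medians are 0.06 for the 10 members, 0.38 for Wnt ligands and secreted factors, -0.07 for receptors and transducers and 0.06 for the periportal genes.

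Within each liver the zonal lists were compared as the median log2 CPM after centring every gene on its mean over the 4 livers. For the members these medians were -0.31 and 0.15 in control and -0.09 and 0.13 in the livers labelled HuR hKO. For Axin2, Lgr5, Rnf43 and Tbx3 they were -0.52 and 0.30 in control and 0.06 and 0.12 in the livers labelled HuR hKO, so the controls lay on either side of the other pair. The other pericentral genes gave -0.15 and 0.02 against -0.11 and 0.21, and the periportal genes -0.02 and -0.15 against -0.04 and 0.12. All of these lists overlapped between the groups. Among the other Wnt and metabolic lists, the medians did not overlap for the Wnt ligands and secreted factors (-0.16 and -0.20 in control, 0.19 and 0.15 in the livers labelled HuR hKO). The same held for the glutamine and ornithine genes (-0.13 and -0.11 against 0.0033 and 0.21). Narrowly and in the other direction, it also held for the receptors and transducers (0.07 and 0.0076 against 0.0025 and -0.07). Among single genes, both livers labelled HuR hKO lay above both controls for 19.3% and below both for 18.8%.

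**Figure D5:**
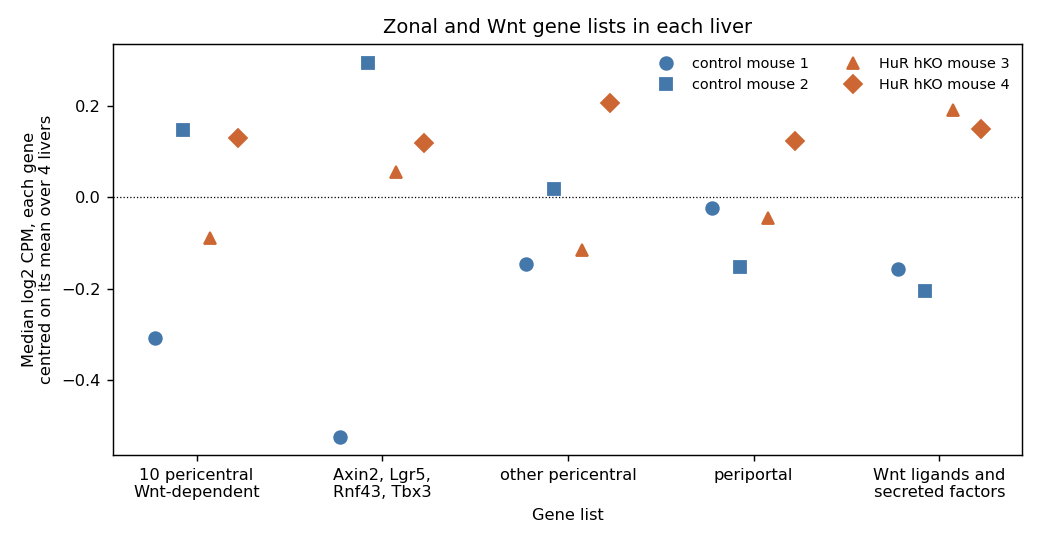
Median log2 CPM of 5 gene lists in each liver, every gene centred on its mean over the 4 livers, with 1 symbol per mouse. Control mouse 1 is lowest for the 10 members (-0.31) and for Axin2, Lgr5, Rnf43 and Tbx3 (-0.52). Of the 5 lists shown, that of Wnt ligands and secreted factors alone separates the groups.

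The enzymes and transporters that handle glutamine, glutamate and ornithine beside Glul, Oat and Slc1a2 numbered 15, of which 14 were tested. Of these, 12 were above and 2 below 0, and the median log2 fold change was 0.17. Among the 14, 7 had both livers labelled HuR hKO above control and 1 had both below (19.3% and 18.8% of all genes). None passed an adjusted p of 0.05 in edgeR, and 4 were higher and 0 lower at an unadjusted p under 0.05 (4.04% and 3.39% of all genes). Gls2, the liver glutaminase that runs opposite to Glul and is periportal, was at 251 and 218 CPM in control and at 315 and 331 CPM in the livers labelled HuR hKO. The fitted log2 fold change was 0.46 ± 0.14 (SE, adjusted p = 0.490 by edgeR), beside 0.53 for Glul. Got1, the cytosolic aspartate aminotransferase, had 120 and 112 CPM in control and 143 and 228 CPM in the livers labelled HuR hKO (log2 fold change 0.68 ± 0.21, SE, adjusted p = 0.510 by edgeR). Prodh, which starts proline breakdown, had 217 and 231 CPM against 270 and 404 CPM (log2 fold change 0.59 ± 0.20, SE, adjusted p = 0.542 by edgeR). Glud1, glutamate dehydrogenase, overlapped between groups (log2 fold change 0.15 ± 0.16, SE).

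The aryl hydrocarbon receptor also drives Cyp1a2. Of 6 targets of this receptor, 3 were tested, 2 above and 1 below 0, with 0 at an unadjusted p under 0.05 and none past an adjusted p of 0.05 in edgeR. Cyp1a1 had 8 and 8 counts in control and 13 and 13 in the libraries labelled HuR hKO and did not pass the filter. Tiparp (0.15 ± 0.29), Nqo1 (0.30 ± 0.33), Ugt1a6a (-0.16 ± 0.15) and Ahr itself (-0.23 ± 0.17, log2 fold changes ± SE) overlapped between groups.

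The genes whose levels over the 4 livers were nearest to those of Glul were found by root mean square distance on the centred log2 scale among 11095 genes. They were Gm15590 (0.015), Ggt6 (0.021), a gamma-glutamyltransferase, Acot8 (0.028), a peroxisomal thioesterase, Gm11808 (0.029) and Mcm3 (0.031), a subunit of the replicative helicase. The measure rests on 4 values per gene. No member or listed pericentral gene was among these 5, but 5 of 11095 genes are too few to show whether Glul varies with them.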

How the data were processed

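Total liver RNA of 4 mice, 2 control and 2 HuR hKO by the titles given to the samples, was sequenced. The authors deposited whole-number counts per gene with no normalization. The submitters' processing notes name RSEM and GRCm38, without roles; the aligner, annotation and strand setting are not given in the sources used here. Counts were tested as deposited with edgeR 4.0.16 in R 4.3.3 (quasi-likelihood test, TMM, filterByExpr with a minimum count of 10 and a minimum total of 15, Benjamini-Hochberg over 13001 genes), with DESeq2 1.42.0 and limma 3.58.1 as alternatives. CPM were scaled by TMM, and a prior count of 2 was used on the log2 scale. No intervals for counting error are given, and the values after ± are SDs over the mice of a group or SEs of the fit. The libraries held 13032095 to 19715577 counts, and any pair of them differed beyond sampling noise (chi-square per degree of freedom 21.2 to 32.7). Exact permutation of 2 against 2 mice allows no two-sided p below 0.333, so it was not used. In simulated data for this comparison, over 13001 genes, 93.9% of 4-fold and 63.4% of 2-fold changes were recovered, and 10.5% of calls were false.

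The 10 members and all gene lists were chosen with earlier results of these data known. Named genes were the members, Elavl1, a list by role, the 3 smallest p-values per pathway or zone list and the 5 genes nearest Glul (mean log2 CPM of at least 1). Krt19 and Spp1 were named after their values were seen. Lengths, positions and 3' UTRs came from GENCODE M21 (GRCm38), and upstream windows from RefSeq (GRCm38.p6). Alternatives changed the scaling, the filter, the test and the libraries used.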

Additional observations from a re-analysis of the deposited data

How the results depend on the processing

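Of 130 fold changes of members recomputed under 13 alternatives, 117 kept their direction and side of the threshold. Without scaling for library size, which moves the median of all genes from 0.0020 to 0.31, Oat (0.31), Slc1a2 (0.26), Cyp2e1 (0.17) and Lgr5 (0.086) reversed; relative to that shift they lie at or below it. With 1 mouse left out (the lone mouse is assumed to vary like the other group), the log2 fold change ran from -0.34 to 0.28 for Oat, -0.077 to 0.44 for Lhpp, -0.084 to 0.22 for Cyp1a2, -0.38 to 0.61 for Axin2, -0.50 to 0.088 for Lgr5 and -0.54 to 1.18 for Tbx3. The genes called, 3 in all, numbered 8 with library totals alone, 155 without scaling, 161 without the filter, 85 with DESeq2 and 8 with the robust test, and 0 (without mouse 3) to 45 (without control mouse 2) with a mouse left out. Those past 1.8-fold with an unadjusted p under 0.05, 276 in all, numbered 571 without scaling, 526 without the filter and 264 to 446 with a mouse left out, the highest without control mouse 2.

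List medians without scaling were 0.38 (members), 0.67 (ligands and secreted factors), 0.24 (receptors), 0.37 (other targets), 0.38 (other pericentral), 0.41 (periportal), 0.45 (aryl hydrocarbon receptor targets, 0.15 as reported) and 0.48 (glutamine and ornithine), and limma-voom gave 0.31 for the ligands and secreted factors. With a mouse left out they ran from -0.10 to 0.36 for the members, 0.33 to 0.40 for the ligands and secreted factors, -0.13 to -0.033 for the receptors, -0.095 to 0.22 for other targets, -0.05 to 0.18 for other pericentral, -0.011 to 0.21 for periportal, -0.14 to 0.25 for aryl hydrocarbon receptor targets and 0.13 to 0.26 for glutamine and ornithine genes. Among named non-members, Aldh1b1 had an adjusted p of 0.0021 without the filter and 0.0060 without scaling, Fzd7 0.046 without the filter, Rhbg 0.026 without the filter and 1.9e-06 without scaling, Nt5e 0.042 without scaling, and Krt19 0.00021 without scaling and 0.031 without control mouse 2 (log2 fold change -3.33). The cause was not tested. No paired analysis was possible because the control and HuR hKO mice share no number. Axin2 and Lgr5, at 52 to 135 counts per library, are the members that depth limits most.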
